A study of Mus musculus with 12 samples.

Results

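Cytosolic DNA sensing by cGAS and STING was followed through 8 genes, listed by name for their known roles, with earlier results of these data in view: Cgas, Sting1, Tbk1, Irf3, Trex1, Samhd1, Enpp1 and Mavs. All 8 were among the 25514 genes counted and among the 12971 genes that passed the filter on low counts. The RNA came from 12 libraries of conditionally immortalized proximal tubule (PT) cells in 4 groups of 3. Floxed PT cells (TβRII flox/flox, genotype H2ts6;Tgfbr2 fl/fl) came from male mice. These mice bore loxP sites in Tgfbr2, the gene of the TGF-β type II receptor, and a temperature-sensitive T antigen from the Immorto-mouse. TβRII-/- PT cells were made from such cells with an adenovirus carrying Cre in culture, so that each genotype is a cell line. Differences between the lines other than the deletion cannot be told apart from it, and p-values measure the spread between libraries of a line. Untreated cells of both genotypes were kept in complete medium, and the other libraries of both genotypes came from cells given H2O2 for 24 h in serum-free medium, so that H2O2 and the lack of serum cannot be told apart. The labels give the H2O2 dose in mM and the study's methods the same figure in µM. All cells were grown with interferon gamma at the permissive temperature and moved to a higher temperature before the experiment, when interferon gamma was removed according to the methods.

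The enzyme cGAS binds DNA in the cytosol, whether from microbes, mitochondria or damaged nuclei, and makes the cyclic dinucleotide cGAMP. cGAMP binds STING in the endoplasmic reticulum, STING moves towards the Golgi and recruits the kinase TBK1, and TBK1 phosphorylates the transcription factor IRF3, which enters the nucleus and switches on interferons and cytokines. The DNA exonuclease TREX1 and the dNTP hydrolase SAMHD1 limit the DNA that can be sensed, ENPP1 hydrolyses cGAMP outside the cell, and MAVS on the mitochondrial surface relays the RNA sensors RIG-I and MDA5 to the same TBK1 and IRF3. In kidney tubules the pathway is known as a route from leaked mitochondrial DNA to inflammation.

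Promoter sequences are shown for Cgas, Mavs and Samhd1, members that differed between the genotypes by large and well-counted amounts and for which the promoter table has an entry. Each run is the RefSeq promoter of GRCm38.p6, 5′ to 3′, from 250 bases before to 50 bases after the start of the gene. Capitals mark the matches found to motifs searched on both strands.
Cgas, chr9:78443188-78443487, minus strand: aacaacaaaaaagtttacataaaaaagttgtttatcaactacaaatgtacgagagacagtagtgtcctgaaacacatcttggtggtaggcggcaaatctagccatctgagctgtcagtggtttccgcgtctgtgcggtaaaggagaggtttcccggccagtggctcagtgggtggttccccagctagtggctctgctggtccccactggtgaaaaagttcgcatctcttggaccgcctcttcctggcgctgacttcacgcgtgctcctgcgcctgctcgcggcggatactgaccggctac
Mavs, chr2:131233813-131234112, plus strand: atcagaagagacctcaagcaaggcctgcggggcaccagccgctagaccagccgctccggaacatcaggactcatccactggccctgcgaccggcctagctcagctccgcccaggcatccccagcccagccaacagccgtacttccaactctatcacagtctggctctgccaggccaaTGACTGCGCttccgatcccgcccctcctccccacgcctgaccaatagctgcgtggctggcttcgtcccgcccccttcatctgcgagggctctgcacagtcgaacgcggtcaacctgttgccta
Samhd1, chr2:157135047-157135346, minus strand: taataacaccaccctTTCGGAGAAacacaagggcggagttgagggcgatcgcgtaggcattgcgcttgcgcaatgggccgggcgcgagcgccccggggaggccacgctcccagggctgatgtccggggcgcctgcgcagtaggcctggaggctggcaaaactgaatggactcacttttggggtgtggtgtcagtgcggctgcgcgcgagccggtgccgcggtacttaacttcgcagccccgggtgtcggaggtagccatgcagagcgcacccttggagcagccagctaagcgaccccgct

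The motifs were the interferon-stimulated response element, ISRE, GAAANNGAAA, which 3.44% of the 32851 promoters in the table hold, the gamma-activated site, GAS, TTCNNNGAA, in 8.3%, a palindromic Smad-binding element, GTCTAGAC, in 0.213%, and the antioxidant response element, ARE, TGACNNNGC, in 12.4%. The Mavs window held an ARE match, TGACTGCGC, 73 bases before the start of the gene, and the Samhd1 window a GAS match, TTCGGAGAA, 235 bases before it. The Cgas window held no match, which says only that these letters are not in it. Promoters of 7 of the 8 members were in the table, and the windows of Enpp1, Irf3, Tbk1 and Trex1 held no match either.

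Libraries held between 15870155 and 20857618 counts over genes. The proximal tubule markers Lrp2 and Aqp1 had at least 10554 and 4243 normalized counts in every library, that is, counts scaled to the mean library size. The summed level of 9 proximal tubule markers was nevertheless lower in TβRII-/- PT cells, at 15063 to 16091 against 22030 to 28015 untreated and at 15884 to 17260 against 30910 to 33766 with H2O2. Nearly all of each sum came from Lrp2 and Aqp1. Without treatment, Lrp2 was at 0.637 and Aqp1 at 0.622 times the level of the floxed line. Slc34a1 and Hnf4a, which define the differentiated proximal tubule, were at or near 0 in both genotypes. The epithelial genes Cdh1 and Epcam were near 0 in untreated floxed PT cells and averaged 1111 and 664 normalized counts in untreated TβRII-/- PT cells. The other epithelial markers, Krt8, Krt18, Cdh16 and Pax8, were at 2.21, 5.20, 2.08 and 1.20 times the level of the untreated floxed line. All 6 epithelial markers summed to 17564 to 19092 normalized counts in untreated floxed PT cells and 37232 to 40332 in untreated TβRII-/- PT cells. Of 12 leukocyte markers, 10 had at most 10 counts in every library and 5 had 0 in all of them, among them Adgre1, C1qa and Cd3e. The summed level of the 12 was 556 to 602 normalized counts in untreated floxed PT cells and 399 to 413 in untreated TβRII-/- PT cells, nearly all from Cd14 and Cd68. The part of these differences between the lines in the members' values was not tested. Tgfbr2 itself was still counted in TβRII-/- PT cells, at 6358 to 6782 normalized counts against 7562 to 9248 in untreated floxed PT cells, and counts over a whole transcript do not check the loss of an exon.

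Without treatment, 6 of the 8 genes differed between the genotypes at an adjusted p under 0.05 (edgeR's quasi-likelihood test, Benjamini-Hochberg adjustment over all genes tested). Cgas, Mavs and Enpp1 were higher in TβRII-/- PT cells, and Sting1, Samhd1 and Tbk1 were lower. The sensor and its receptor thus moved in opposite directions. Over all genes tested, 64.7% were called, 33.3% higher and 31.4% lower, so that the share of members called was close to the background. At a fold change of at least 1.5 as well, 5 of the 8 members were called against 28.0% of all genes.

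Cgas, the DNA sensor, had 97.8, 103 and 116 normalized counts in untreated floxed PT cells and 220, 237 and 232 in untreated TβRII-/- PT cells. The groups did not overlap, and every TβRII-/- library held more than every floxed library. The log2 fold change was 1.12 (SE 0.12, adjusted p = 6.95e-10), a 2.17-fold higher level. Of the bases of the Cgas transcript, 39.7% lie opposite a long noncoding RNA, Gm68924, and whether the counting used strand is not given in the sources used here, so the reads of the pair may not be separated.

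Sting1, the receptor of cGAMP, showed the largest log2 fold change of the 8 genes between the untreated genotypes. Untreated floxed PT cells had 242, 207 and 179 normalized counts and untreated TβRII-/- PT cells 47.1, 31.0 and 38.3. The lowest floxed library lay far above the highest TβRII-/- library. The log2 fold change was -2.44 (SE 0.17, adjusted p = 4.67e-14), which is 0.185 times the level in the floxed line. In these bulk libraries, fewer cells that express a gene and less RNA in each cell cannot be told apart.

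Tbk1, the kinase downstream of both STING and MAVS, had 1357, 1180 and 1181 normalized counts in untreated floxed PT cells and 1027, 1102 and 1042 in untreated TβRII-/- PT cells. The groups did not overlap, but the difference was small, with a log2 fold change of -0.23 (SE 0.07, adjusted p = 0.00321). Irf3, the transcription factor it phosphorylates, had 1108, 984 and 941 normalized counts in the floxed line and 1081, 1039 and 1016 in TβRII-/- PT cells. Those ranges overlapped, and the log2 fold change was 0.05 (SE 0.07, adjusted p = 0.553). The log2 fold changes of the kinase and the factor that carry the signal were thus smaller than those of the sensor and the receptor.

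Of the enzymes that limit the DNA that can be sensed, Samhd1 had 4175, 3958 and 4448 normalized counts in untreated floxed PT cells and 1952, 2070 and 2116 in untreated TβRII-/- PT cells. The groups were far apart, with a log2 fold change of -1.04 (SE 0.06, adjusted p = 7.88e-16). Trex1 had 102, 136 and 138 normalized counts in the former and 117, 108 and 134 in the latter. The Trex1 ranges overlapped, and the log2 fold change was -0.06 (SE 0.14, adjusted p = 0.725). The exons of Trex1 lie wholly within exons of Atrip on the same strand, so reads of these genes cannot be separated and the value of Trex1 is uncertain. Atrip had 282 to 343 normalized counts in untreated floxed PT cells and 248 to 295 in untreated TβRII-/- PT cells.

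Enpp1, the hydrolase of extracellular cGAMP, was near the limit of detection. It had 7, 2 and 2 counts in untreated floxed PT cells and 12, 12 and 17 in untreated TβRII-/- PT cells, before any scaling. The groups did not overlap, and the log2 fold change was 1.74 (SE 0.51, adjusted p = 0.00336). It was 2.56 without replicate 1 of the floxed PT cells, which held the 7 counts, and at least 1.44 with any other library left out. The ratio of the summed counts, 41 against 11, was 3.41 after scaling, with an exact binomial 95% interval of 1.72 to 7.37 that covers counting error only.

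Mavs, the mitochondrial adaptor of RNA sensing, had 474, 451 and 500 normalized counts in untreated floxed PT cells and 879, 877 and 924 in untreated TβRII-/- PT cells. All TβRII-/- libraries lay above all floxed libraries. The log2 fold change was 0.91 (SE 0.07, adjusted p = 3.05e-13), a 1.88-fold higher level.

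**Figure D1:**
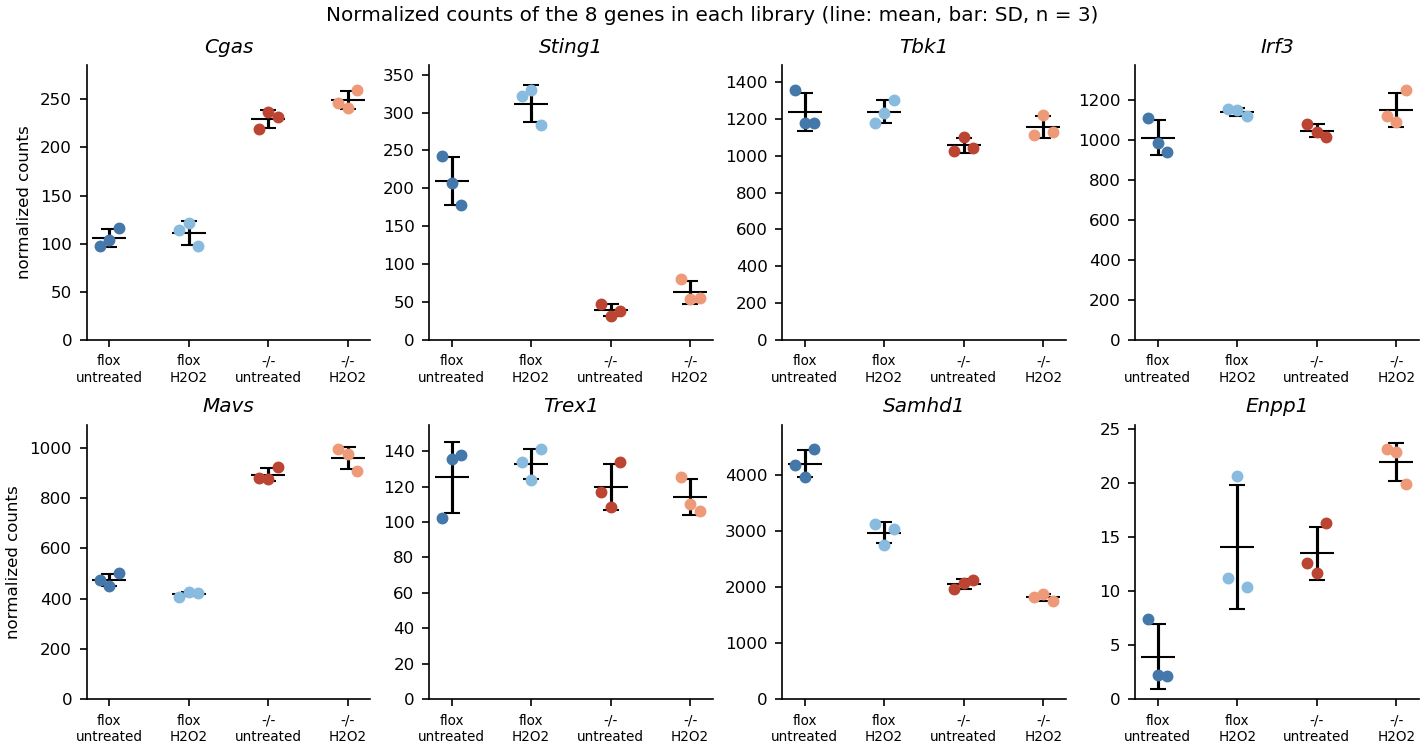
Normalized counts (vertical axis, from 0) of the 8 genes in each of the 12 libraries, by group, with the mean (line) and SD (bar) of 3 libraries. Cgas lay between 97.4 and 122 in floxed PT cells and between 220 and 260 in TβRII-/- PT cells, and Sting1 between 179 and 330 against 31.0 and 80.3.

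With H2O2 the same comparison called 4 of the 8 genes, against 66.4% of all genes tested (35.1% higher and 31.3% lower). Cgas and Mavs were higher in TβRII-/- PT cells, Sting1 and Samhd1 lower, and all 4 also passed a fold change of 1.5, which 30.7% of all genes did. Cgas had 115, 122 and 97.4 normalized counts in floxed PT cells with H2O2 and 246, 241 and 260 in TβRII-/- PT cells with H2O2. The groups stayed apart, with a log2 fold change of 1.16 (SE 0.11, adjusted p = 1.49e-10). Sting1 had 322, 330 and 284 normalized counts in the former and 80.3, 53.5 and 54.7 in the latter. Its log2 fold change was -2.32 (SE 0.15, adjusted p = 2.81e-15), and no TβRII-/- library came near the floxed range.

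Mavs had 408, 426 and 421 normalized counts in floxed PT cells with H2O2 and 994, 974 and 910 in TβRII-/- PT cells with H2O2, with a log2 fold change of 1.20 (SE 0.07, adjusted p = 2.83e-16). Samhd1 had 3119, 2752 and 3028 in the former and 1822, 1870 and 1741 in the latter, with a log2 fold change of -0.71 (SE 0.06, adjusted p = 9.78e-12). Neither gene overlapped between the genotypes. The other 4 members were not called. Tbk1 had a log2 fold change of -0.10 (SE 0.07, adjusted p = 0.179), Irf3 of 0.01 (SE 0.07, adjusted p = 0.882), Trex1 of -0.22 (SE 0.14, adjusted p = 0.158) and Enpp1 of 0.63 (SE 0.34, adjusted p = 0.104), each with overlapping ranges. Tbk1 and Enpp1 were called when a single floxed library with H2O2 was left out, Tbk1 without replicate 1 (-0.17, adjusted p = 0.0483) and Enpp1 without replicate 2 (0.995, adjusted p = 0.0359).

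**Figure D2:**
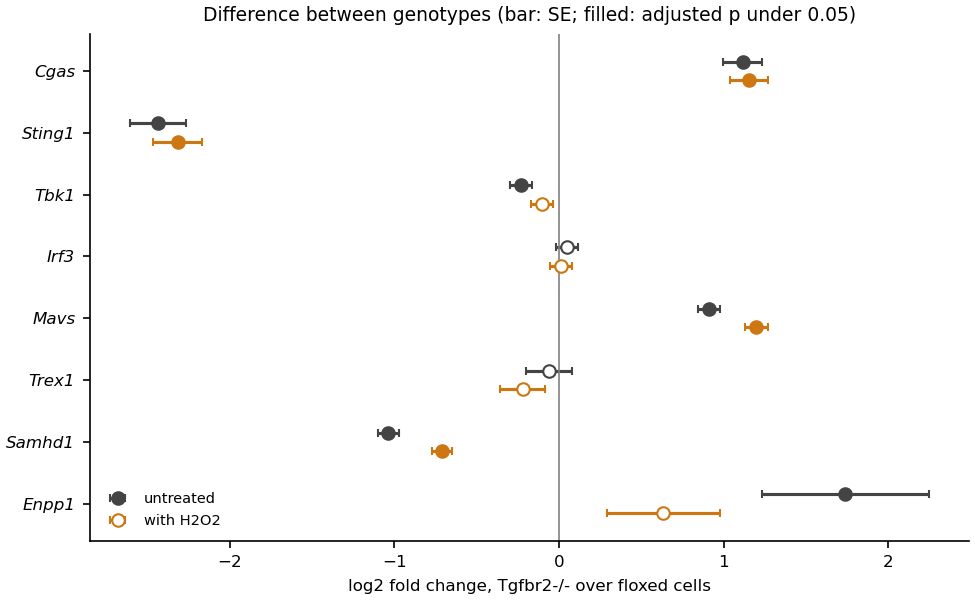
Log2 fold change (horizontal axis) of TβRII-/- over floxed PT cells for the 8 genes, untreated (grey) and with H2O2 (orange), with SE bars and filled points at an adjusted p under 0.05. Sting1 lay at -2.44 and -2.32, Samhd1 at -1.04 and -0.71, Cgas at 1.12 and 1.16 and Mavs at 0.91 and 1.20.

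The members lie on 5 chromosomes, and genes near them also differed between the lines. Around Sting1 (GRCm38.p6, chr18:35733678-35740554), the median log2 fold change of the 24 nearest genes tested was -0.37 relative to the median of all genes without treatment and -0.35 with H2O2. Around Mavs (chr2:131234063-131248025) it was 0.44 and 0.48, and around Samhd1, on the same chromosome (chr2:157097534-157135096), 0.25 and 0.29. Around Cgas (chr9:78430518-78443237) it was -0.13 and 0.03, around Tbk1 (chr10:121546455-121586794) -0.16 and 0.04, and around Enpp1 (chr10:24637914-24712159) -0.31 and -0.06. Around Trex1 it was -0.27 and -0.20, and around Irf3 -0.06 and 0.04. The neighbours of Sting1 and Mavs thus differed in the direction of the member, by less than the member itself, and those of Samhd1 and Enpp1 in the opposite direction. Those of Trex1 differed in its direction, and without treatment by more than Trex1 itself (-0.06). Medians over whole chromosomes were also displaced, by -0.33 and -0.28 on chromosome 18 and by 0.30 and 0.29 on chromosome 2, so the shifts around Sting1, Mavs and Samhd1 were not confined to their neighbours. The part of such differences in the members' values was not tested.

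For Sting1, Samhd1, Mavs and Cgas, the transcripts of a gene gave differences of the same sign and like size. The counts of a gene's transcripts share reads, so this likeness was largely fixed in advance. The 10 Sting1 transcripts had log2 ratios of -2.43 to -2.25 between the untreated genotypes, and the 10 Samhd1 transcripts -1.10 to -0.88. The 4 Mavs transcripts lay between 0.89 and 0.91 and the 3 Cgas transcripts between 1.07 and 1.12. For Irf3, the 12 transcripts ran from -0.45 to 0.12, and the 7 of Tbk1 from -0.44 to -0.23, or, with H2O2, from -0.20 to 0.15. The transcript with the highest total stood for each gene, and for Irf3 that was one annotated with a retained intron, whose total of 13051 counts hardly differed from the 13018 of the protein-coding Irf3-201.

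H2O2 in serum-free medium was then compared with no treatment within each genotype. In floxed PT cells, 5 of the 8 genes were called, 3 higher (Sting1, Irf3 and Enpp1) and 2 lower (Samhd1 and Mavs), against 41.6% of all genes tested, 21.0% higher and 20.5% lower. Enpp1 alone of the 8 passed a fold change of 1.5, which 8.24% of all genes did. In TβRII-/- PT cells, 2 of the 8 were called, Sting1 higher and Samhd1 lower, against 39.6% of all genes, 20.5% higher and 19.1% lower. Sting1 alone passed a fold change of 1.5 there, against 8.33% of all genes. Each comparison with H2O2 shares its untreated libraries with the comparison of untreated genotypes.

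Sting1 rose with H2O2 in both genotypes. In floxed PT cells it went from 242, 207 and 179 to 322, 330 and 284 normalized counts, with a log2 fold change of 0.58 (SE 0.13, adjusted p = 4.19e-04). TβRII-/- PT cells went from 47.1, 31.0 and 38.3 to 80.3, 53.5 and 54.7, with a log2 fold change of 0.70 (SE 0.20, adjusted p = 0.00685). Neither pair of groups overlapped. The level in TβRII-/- PT cells with H2O2 stayed below every floxed library. This last call was lost without replicate 2 of the untreated cells (log2 fold change 0.56, adjusted p = 0.0543) and without replicate 1 of the cells with H2O2 (0.48, adjusted p = 0.0848).

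Samhd1 fell in both genotypes. Its log2 fold change was -0.50 (SE 0.06, adjusted p = 8.13e-08) in floxed PT cells, where 3958 to 4448 normalized counts became 2752 to 3119. In TβRII-/- PT cells, 1952 to 2116 became 1741 to 1870, and the log2 fold change was -0.18 (SE 0.06, adjusted p = 0.0262). The latter call did not hold without replicate 2 or 3 of the untreated cells or replicate 1 or 3 of those with H2O2, where adjusted p-values lay between 0.0630 and 0.117.

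Cgas did not pass the test in either genotype, with a log2 fold change of 0.08 (SE 0.13, adjusted p = 0.669) in floxed PT cells and 0.12 (SE 0.10, adjusted p = 0.386) in TβRII-/- PT cells. Nor did Tbk1, at -0.0004 (SE 0.07, adjusted p = 1.0) and 0.13 (SE 0.07, adjusted p = 0.122), or Trex1, at 0.09 (SE 0.14, adjusted p = 0.646) and -0.07 (SE 0.14, adjusted p = 0.708). The sensor, the kinase and the exonuclease were thus not shown to respond. Irf3 had 1108, 984 and 941 normalized counts before and 1153, 1148 and 1119 after H2O2 in floxed PT cells, and a log2 fold change of 0.17 (SE 0.07, adjusted p = 0.0407). The log2 fold change in TβRII-/- PT cells was 0.14 (SE 0.07, adjusted p = 0.101).

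Mavs had a log2 fold change of -0.19 (SE 0.07, adjusted p = 0.0452) in floxed PT cells and 0.10 (SE 0.06, adjusted p = 0.206) in TβRII-/- PT cells. Both calls in floxed PT cells stood close to the threshold: that of Mavs was lost in 12 of 14 alternatives and that of Irf3 in 7 of 14. Without replicate 3 of the untreated cells, the adjusted p was 0.186 for Mavs and 0.172 for Irf3. Enpp1 went from 7, 2 and 2 counts to 11, 20 and 9 in floxed PT cells, with a log2 fold change of 1.81 (SE 0.51, adjusted p = 0.00473). The ratio of its summed counts was 3.58 after scaling (exact binomial 95% interval 1.80 to 7.73). Without replicate 2 of the cells with H2O2, which held the 20 counts, the log2 fold change was 1.42 and the adjusted p 0.0602, and without replicate 1 of the untreated cells it was 2.64. In TβRII-/- PT cells it had 12, 12 and 17 counts before and 25, 29 and 20 after, and its log2 fold change of 0.70 (SE 0.34, adjusted p = 0.104) did not pass.

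**Figure D3:**
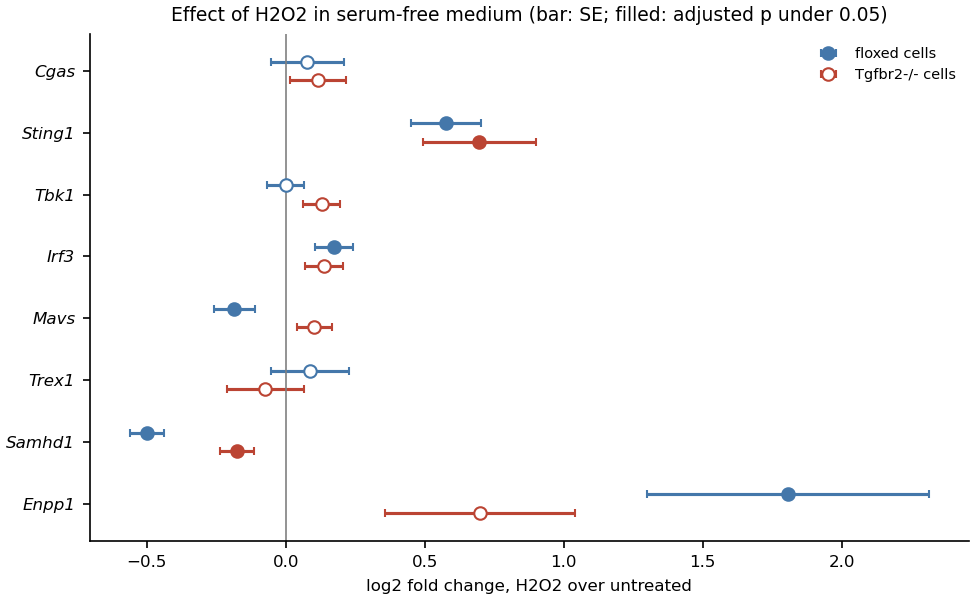
Log2 fold change (horizontal axis) with H2O2 in serum-free medium over untreated cells for the 8 genes, in floxed (blue) and TβRII-/- (red) PT cells, with SE bars and filled points at an adjusted p under 0.05. Sting1 lay at 0.58 and 0.70 and Samhd1 at -0.50 and -0.18.

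The test of the difference between the genotypes in the response to H2O2 called 1 of the 8 genes, against 10.2% of all genes tested. That gene was Samhd1, which fell by less in TβRII-/- PT cells, with a difference in log2 fold change of 0.32 (SE 0.09, adjusted p = 0.0151). The call was lost without replicate 1 of untreated TβRII-/- PT cells (0.29, adjusted p = 0.0514), replicate 2 of floxed PT cells with H2O2 (0.25, adjusted p = 0.0861) or replicate 2 of TβRII-/- PT cells with H2O2 (0.30, adjusted p = 0.0542), and with counts summed over transcripts (0.29, adjusted p = 0.0614). For Mavs the difference was 0.29 (SE 0.10, adjusted p = 0.0558). It was called when replicate 3 of TβRII-/- PT cells with H2O2 was left out (0.33, adjusted p = 0.0437). The responses of Sting1 were not shown to differ, with a difference of 0.12 (SE 0.24, adjusted p = 0.819), and neither were those of Cgas, 0.04 (SE 0.17, adjusted p = 0.932), Tbk1, 0.13 (SE 0.09, adjusted p = 0.432), or Enpp1, -1.11 (SE 0.63, adjusted p = 0.290).

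Levels of different genes were compared as RPKM, counts scaled to the length of the transcript and to the library size. In untreated floxed PT cells the order was Samhd1 (61.5 ± 3.60, SD, n = 3), Irf3 (32.4 ± 2.78), Tbk1 (23.1 ± 1.91), then Trex1 (6.65 ± 1.07), Mavs (5.31 ± 0.276) and Sting1 (5.24 ± 0.796), whose libraries overlapped, then Cgas (1.49 ± 0.132) and Enpp1 (0.0333 ± 0.0254). In untreated TβRII-/- PT cells Irf3 (33.5 ± 1.07) and Samhd1 (30.0 ± 1.24) were the highest, and their order depends on the transcript that gives the length of Irf3. With the protein-coding Irf3-201 (2070 bases, against 1797 for the transcript used), Irf3 was at 29.1 ± 0.873 and its range overlapped that of Samhd1. Tbk1 (19.7 ± 0.741), Mavs (9.99 ± 0.294), Trex1 (6.37 ± 0.692), Cgas (3.23 ± 0.127), Sting1 (0.971 ± 0.202) and Enpp1 (0.115 ± 0.0210) followed, and neighbours among these 6 did not overlap. Cgas and Sting1 had changed places.

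Within each library, the level of Cgas per length was 0.227 to 0.365 times that of Sting1 in untreated floxed PT cells and 2.62 to 4.30 times in untreated TβRII-/- PT cells. With H2O2 the ratio was 0.192 to 0.208 and 1.72 to 2.67. Mavs, the adaptor of RNA sensing, stood at 0.876 to 1.25 times the level of Sting1 in untreated floxed PT cells and at 8.35 to 12.7 times in untreated TβRII-/- PT cells. The ratios of the genotypes did not overlap in either medium, so that STING mRNA was below that of both cGAS and MAVS in all 6 TβRII-/- libraries.

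**Figure D4:**
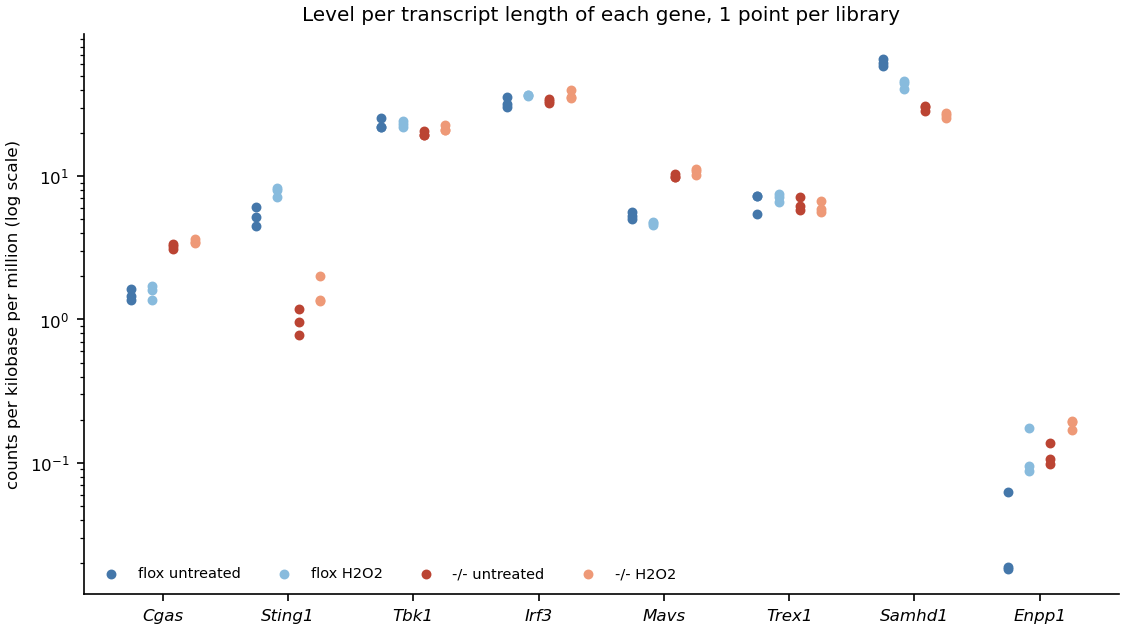
RPKM, counts scaled to transcript length and library size (vertical axis, log scale), of the 8 genes, 1 point per library, coloured by group. Samhd1, Irf3 and Tbk1 were the highest, Enpp1 lay near the floor, and Sting1 lay above Cgas in floxed PT cells and below it in TβRII-/- PT cells.

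The genes whose pattern over the 12 libraries was most like that of Cgas, among 12595 protein-coding genes, were St3gal1 (Pearson r 0.995), Dact2 (0.994) and Mal (0.993). Most like Sting1 were Dyrk1a (0.995), Ubqln4 (0.994) and Atxn7l2 (0.991). These r values are descriptions over libraries that fall into 4 groups, and all of these genes separate the genotypes.

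The wider pathway was read from 156 genes in 11 lists, 138 of which were tested. In untreated cells, 42 of the 138 (30.4%) were higher and 50 (36.2%) lower in TβRII-/- PT cells, close to the 33.3% and 31.4% over all genes, and their median log2 fold change was -0.06 beside 0.01 over all genes. The counts of single lists are read against the same shares. Of 16 tested genes of STING retention, trafficking and modification, 12 were lower and 2 higher, with a median of -0.36. Lower were Zdhhc15, an enzyme that palmitoylates STING (-1.85, adjusted p = 1.68e-16), and Npc1, the lysosomal cholesterol transporter (-0.82, adjusted p = 9.87e-13). Higher was Nlrc3, an inhibitor of STING signaling (3.81, adjusted p = 1.26e-13), which went from 4.45 to 9.47 normalized counts to between 84.2 and 114. With H2O2 the list had 12 lower and 3 higher, with a median of -0.53.

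Channels and carriers of cGAMP were split, with 4 of 10 tested higher and 5 lower. The lower ones included Gja1, the gap junction protein connexin 43 (-1.44, adjusted p = 4.80e-19), the importer Slc19a1 (-1.43, adjusted p = 3.97e-14) and the channel subunit Lrrc8e (-1.55, adjusted p = 2.43e-15). Of 16 other sensors, 5 were higher and 2 lower. Zcchc3, a cofactor of cGAS, rose from 24.2 to 27.8 normalized counts to between 205 and 221 (3.06, adjusted p = 3.49e-17). Aim2 (-2.52, adjusted p = 1.36e-04) and Ifi203 (-1.95, adjusted p = 4.44e-04) were lower, on at most 24 counts in a library. Of 10 genes listed for nuclear control of cGAS, whatever the direction in which they act, 2 were higher and 7 lower, such as Lmna (-0.45, adjusted p = 2.75e-07).

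Partners and regulators of MAVS, listed whatever the direction in which they act, had 6 of 12 tested higher and 1 lower, with a median of 0.17. Among the higher were Tradd (0.57, adjusted p = 6.66e-07) and Itch (0.43, adjusted p = 8.11e-07). Of 18 kinases, adaptors and factors beside Tbk1 and Irf3, 7 were higher and 5 lower. Higher were the TBK1 adaptors Optn (1.94, adjusted p = 3.90e-18) and Tbkbp1 (2.26, adjusted p = 5.43e-05), and lower was Nfkb1 (-0.93, adjusted p = 2.89e-15). Tbkbp1 rests on few counts, with a mean of 12.8 normalized counts over the libraries compared (SE 0.45), against 401 for Optn. Of 12 genes of mitochondrial DNA release and packaging, 6 were higher, such as Tfam, the packaging factor (0.50, adjusted p = 3.24e-06), and 3 were lower. Of 10 nucleases, 2 were higher and 3 lower, such as the lysosomal exonuclease Pld3 (-0.49, adjusted p = 6.54e-07).

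**Figure D5:**
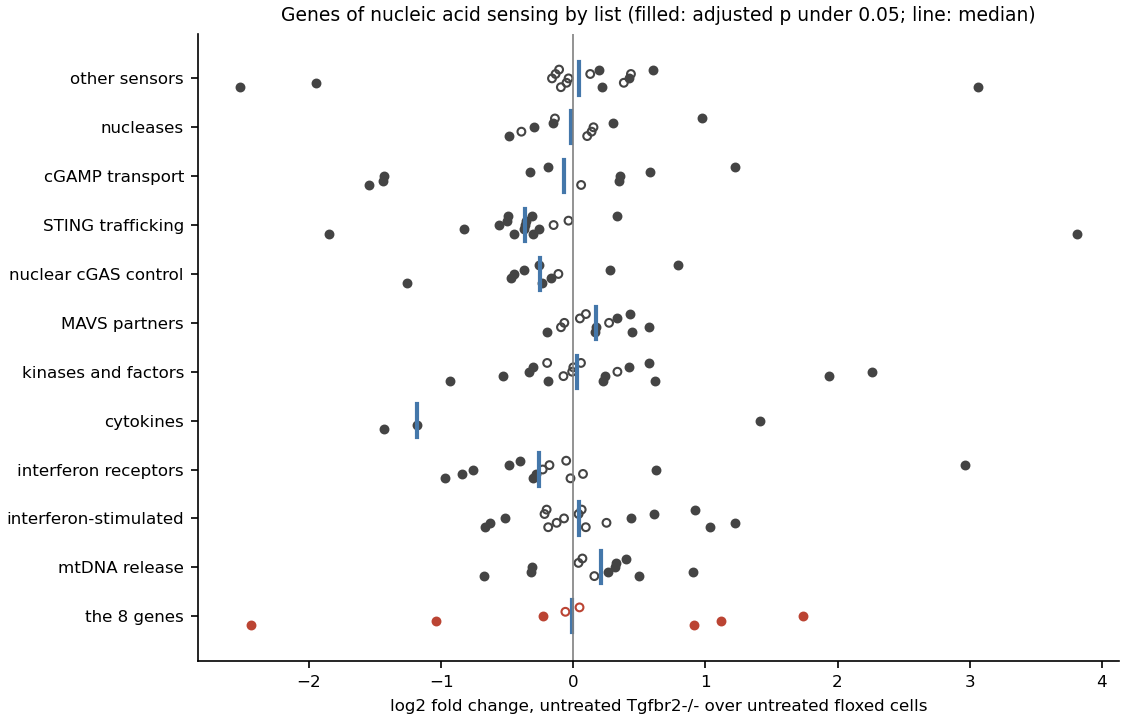
Log2 fold change (horizontal axis) of untreated TβRII-/- over untreated floxed PT cells for the tested genes of 11 lists and for the 8 genes (red), with the median of each list (blue line) and filled points at an adjusted p under 0.05. The median of the STING trafficking list lay at -0.36 and that of the 8 genes at -0.01.

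At the end of the pathway, 8 of 12 interferons and cytokines had 0 counts in every library, among them Ifnb1, Ifna4, Il6 and Tnf, which at this depth allows up to 3 counts in a library. The chemokines Cxcl10 and Ccl2 were lower in untreated TβRII-/- PT cells, with log2 fold changes of -1.19 (adjusted p = 4.41e-13) and -1.43 (adjusted p = 7.78e-15), and Cxcl1 was higher (1.42, adjusted p = 4.21e-17). Cxcl10, which IRF3 and interferon both induce, had 782, 695 and 633 normalized counts in untreated floxed PT cells and 284, 358 and 284 in untreated TβRII-/- PT cells. Of 14 interferon receptors and signaling genes, 2 were higher and 7 lower. The receptor of interferon lambda, Ifnlr1, was higher (2.96, adjusted p = 8.40e-16), and Ifngr1 (-0.97, adjusted p = 1.52e-13) and Ifnar1 (-0.84, adjusted p = 2.04e-13), receptor chains of interferon gamma and of type I interferons, were lower.

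Interferon-stimulated genes were split between the untreated genotypes, 5 of 17 tested higher and 3 lower, with a median of 0.04. Oas1a (1.22, adjusted p = 1.22e-06), Cmpk2 (1.04, adjusted p = 9.32e-04) and Ifit3 (0.92, adjusted p = 7.43e-14) were the largest by the rule for named genes. The 3 lower were Isg15 (-0.67, adjusted p = 0.0161), whose ranges overlapped, Ifit1 (-0.63, adjusted p = 0.00116) and Xaf1 (-0.51, adjusted p = 0.0190). With H2O2, 7 of the 17 (41.2%) rose and 1 fell in floxed PT cells, where 21.0% of all genes rose and 20.5% fell, with a median of 0.39 beside 0.01 over all genes. In the TβRII-/- line 11 (64.7%) rose and 1 fell, where 20.5% of all genes rose and 19.1% fell, with a median of 0.55 beside 0.02. Rsad2, an antiviral enzyme, had 23.1, 33.4 and 41.9 normalized counts before and 97.4, 78.5 and 113 after H2O2 in floxed PT cells, and its log2 fold change was 1.55 (adjusted p = 3.40e-07). In TβRII-/- PT cells it rose by 1.01 (adjusted p = 3.84e-05), from 57.5, 46.5 and 46.9 to 105, 95.9 and 103. Oasl2 rose by 0.62 (adjusted p = 0.00111) and 0.86 (adjusted p = 4.68e-06). None of the 17 passed the test of a difference between the genotypes in this response by edgeR, with 3 at an unadjusted p under 0.05 and 0 called by DESeq2, and the median difference was 0.24. No interferon of the cytokine list was counted in any of these libraries.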

How the data were processed

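RNA of 12 libraries was analysed in 4 groups of 3, set by the genotype, treatment and title given in the labels. Libraries were made with a stranded TruSeq mRNA kit. The authors removed adapters with fastp, used STAR for alignment to the GRCm38.p6 genome and the GENCODE M23 annotation, and featureCounts for counting, whose setting for strand and for reads shared by genes is not given in the sources used here. The deposited files hold raw, whole-number counts for each transcript, where the fixed designs had assumed counts for each gene. Counts over all transcripts came to between 51387170 and 69231661 in a library. This is more than the reads the paper gives for any library, so reads were counted for several transcripts of a gene. Identifiers of 104820 of the 106332 transcripts were found in GENCODE M39, and the other 1512 were left out. The transcript with the highest total stood for each of 25514 genes, 17419 of which had several.

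Counts were tested in R 4.3.3 with edgeR 4.0.16 (TMM, filterByExpr, glmQLFit and glmQLFTest, a mean per group, 12971 genes). A gene was called at a p under 0.05 after Benjamini-Hochberg adjustment. The SE is the log2 fold change divided by the square root of F. Normalized counts are scaled to the mean effective library size, 17351835. Alternatives were DESeq2 1.42.0, its size factors, other filters, sums over transcripts, the groups compared alone, the replicate number as a block, and each library left out. Sums over transcripts count a shared read more than once. The protein-coding transcript as the one standing for a gene was added after the data were seen. Scripts were tested on simulated data.

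The 8 members and the 11 lists were chosen with earlier results of these data known. Named beside the members are, per list and comparison, up to 3 called genes with the largest change that averaged 10 or more normalized counts and did not overlap between the groups, genes of the cytokine list, and the 3 protein-coding genes most correlated with Cgas and with Sting1. Outside this rule, the interferon-stimulated genes that were lower in untreated TβRII-/- PT cells are also named. Replicates of a group differed by more than sampling noise (chi-square per gene 3.65 to 12.7). Tables were joined with Python 3.11.15. Coordinates and promoters are those of RefSeq for GRCm38.p6. No promoter of Sting1 was used here. Some results that the rule for named genes covers are not reported here.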

Additional observations from a re-analysis of the deposited data

Results flagged for a closer look

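Given here are 11 genes, among the members and the listed genes that the rule names, that differed between the genotypes in their response to H2O2 by edgeR's test of the interaction (adjusted p under 0.05). The difference in log2 fold change, TβRII-/- minus floxed PT cells, was 0.32 for Samhd1 (adjusted p = 0.0151), the only one of the 8 members, a call lost in 4 of 19 alternatives. It was -1.80 for P2rx7, an ATP-gated channel (adjusted p = 1.12e-05), which rose with H2O2 in the floxed line (log2 fold change 1.35) and fell in TβRII-/- PT cells (-0.45). For Gja1 it was -0.76 (adjusted p = 9.94e-07). Among genes of STING retention and modification it was -0.40 for Stim1, which holds STING in the endoplasmic reticulum (adjusted p = 0.00356), and -0.68 for Zdhhc15 (adjusted p = 0.00379). The other values were -0.56 for Tlr3 (adjusted p = 4.69e-04), 0.54 for Cxcl1 (adjusted p = 0.00268), -0.39 for Ifngr2 (adjusted p = 0.00300), -0.40 for Ttll4 (adjusted p = 0.00754), 0.33 for Trim25 (adjusted p = 0.0239) and -0.28 for Cdk1 (adjusted p = 0.0481). For the flagged genes other than Samhd1, the difference in response was not recomputed in the alternatives. Groups of 3 were not searched for outlying libraries.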

How the results depend on the processing

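Of 594 recomputed values of the 8 genes, 534 kept their direction and side of the threshold, 30 lost and 3 gained a call, and 27 changed direction, none of them a called value. The genotype calls of Cgas, Sting1, Samhd1 and Mavs held in all 14 alternatives with and without H2O2. For H2O2 in floxed PT cells, 3 of the 8 genes were called with no filter on low counts, 3 with at least 10 counts in every library, where Enpp1 was not tested, and 2 with only the groups compared, against 5. For the difference in response, 0 were called by edgeR with counts summed over transcripts (2 at an unadjusted p under 0.05), and 1 by DESeq2 on the counts used. Leaving out each library gave 6 to 6 calls between untreated genotypes, 4 to 5 with H2O2, 2 to 4 for H2O2 in floxed PT cells, 0 to 2 in TβRII-/- PT cells and 0 to 2 for the difference in response. The 0 in TβRII-/- PT cells came without replicate 2 of the untreated or replicate 1 of the treated cells, with 3 and 4 genes at an unadjusted p under 0.05. DESeq2 on all libraries called 2 there.

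Values near 0 changed direction. Irf3 between genotypes with H2O2 was -0.0021 with DESeq2 size factors, -0.0019 with DESeq2, -0.030 with summed counts and -0.00013 with only the groups compared, and ran from -0.048 to 0.054 without each library. Tbk1 with H2O2 in floxed PT cells was 0.012 with DESeq2 size factors, with DESeq2 and with at least 10 counts, 0.0017 with the protein-coding transcript, and ran from -0.030 to 0.081 without each library. The difference in response of Cgas was -0.0088 with summed counts and ran from -0.074 to 0.087. The leave-one-out ranges were -0.091 to 0.27 for that of Sting1, -0.14 to 0.0065 for that of Irf3, -0.012 to 0.11 for Irf3 and -0.19 to 0.0088 for Trex1 between untreated genotypes, and, with H2O2, -0.032 to 0.17 for Trex1 in floxed and -0.15 to 0.016 in TβRII-/- PT cells. With the replicate number as a block, 6 genes were called between untreated genotypes and 4 for H2O2 in floxed PT cells, Mavs being lost (adjusted p = 0.0599). Same-numbered libraries did not deviate together over all genes tested (correlations -0.0705 to 0.0525), so no pairing by number was detected. A weak pairing, or one in few genes, might not be seen in this way. The causes were not tested.

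Of 1805 recomputed values of the other genes that the rule names, 59 lost a call and 0 changed direction. These genes were picked in the same data as called, not overlapping and largest, so a change of direction was unlikely from the start. The 1805 values do not include differences in response to H2O2. Of 1800 recomputed counts of called genes in a list, with the cell type markers as a further list, 161 moved by over 1.5 times or to or from 0. Enpp1 and Sting1 in TβRII-/- PT cells rest on few counts, which limits their precision, and a replicate here is a library of a cell line.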
